A study of Homo sapiens with 16 samples.

Results

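Collagen genes other than those of collagen VI were described in LX-2, a human cell line derived from hepatic stellate cells, which lay down scar matrix in the liver once activated. Members were all genes whose symbol has the form COL, a number, A and a number, without the COL6A genes. The rule found 39 of the 61806 genes in the deposited table, and 5 collagen VI genes were set aside by it. The series concerns an isoform of Fn14, the receptor of the cytokine TWEAK, that signals without its ligand. Poly(A) RNA was sequenced in 4 groups of 4 libraries: wild-type cells given 100 ng/mL TWEAK for 2 h (TWEAK), cells with Fn14alpha knocked out by CRISPR/Cas9 (Fn14alpha KO), cells with total Fn14 knocked out likewise (Fn14 KO), both given PBS, and wild-type cells given PBS (WT). Every group was cultured for 24 h in a reduced-serum endothelial medium before treatment. Each genotype is a cell line of its own, and its clonal origin (1 clone or pooled cells) is not given. The replicates are labelled as biological, with no statement of how they were kept apart, so the p-values reflect sample spread that may be technical.

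Collagens are helical proteins assembled from alpha chains in the endoplasmic reticulum, where prolines and lysines are hydroxylated and a chaperone holds the helix before export. Fibrillar collagens are trimmed outside the cell and cross-linked into the tensile fibres of scar, type IV chains form the sheet of basement membranes, FACIT collagens sit on fibre surfaces, and transmembrane collagens are anchored in the plasma membrane. In liver fibrosis, activated stellate cells are the main source of types I and III, and type IV accumulates along the sinusoids.

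Library depth ran from 13335919 to 15846385 counts in TWEAK, 13741703 to 15300005 in Fn14alpha KO, 14092328 to 16417325 in Fn14 KO and 14273840 to 16888606 in WT. Replicate pairs were compared by chi-square per degree of freedom, which was 25.1 to 39.0 for pairs with Fn14 KO replicate 1, against 7.91 to 9.24 among the other Fn14 KO libraries. It was 20.6 to 22.4 for pairs with WT replicate 4, against 2.30 to 6.81 among the other WT libraries. TNFRSF12A, the Fn14 gene, had 59.3 FPKM in Fn14alpha KO and 33.6 FPKM in Fn14 KO, against 128 FPKM in WT (means, n = 4), with log2 fold changes of −1.14 and −1.81 and adjusted p-values of 2.16e-11 and 2.85e-15. Its read count cannot separate the isoforms. Of 15 stellate cell markers 11 were tested, with 2 higher in TWEAK, 2 higher and 5 lower in Fn14alpha KO, and 6 higher and 4 lower in Fn14 KO, where 6.87%, 42.2% and 52.9% of all tested genes were called. VIM averaged 612, 259 and 447 FPKM in TWEAK, Fn14alpha KO and Fn14 KO, against 378 FPKM in WT. NGFR, TAGLN, HAND2 and PDGFRA, of the same list, diverged more than VIM in Fn14 KO. In Fn14alpha KO TAGLN and PDGFRA did so. NGFR and HAND2 moved less there, with log2 fold changes of 0.38 and −0.23, against −0.58 for VIM. NGFR averaged 1.955 FPKM in Fn14alpha KO and 33.0 in Fn14 KO, against 1.47 in WT, and TAGLN 43.2 and 89.8, against 25.4. HAND2 averaged 1.79 and 0.45 FPKM in the same order, against 2.05, and PDGFRA 0.1325 and 0.0275, against 0.325. PDGFRB averaged 1.5525 and 3.92 FPKM, against 1.79, and ACTA2 1.2075 and 2.7925, against 2.83. LRAT, RELN and GFAP stayed at or under 0.05 FPKM in every library. ALB reached 0.06 FPKM, PECAM1 0.08, EPCAM 0.28 and PTPRC 0.02 in their highest library, and TTR and CLEC4G were at 0 in all 16. Other endothelial, leukocyte and cholangiocyte markers were higher. In their highest library TEK reached 1.68 FPKM, KDR 0.49, CD14 1.67, CD68 0.48, KRT7 1.67 and MUC1 1.85. The summed level of 6 cholangiocyte markers was 12.6 to 14.3 FPKM in Fn14 KO, against 6.0 to 6.92 FPKM in WT, mostly from SOX9 (11.02 FPKM in Fn14 KO, against 4.2 in WT). That of 8 hepatocyte markers was 0.26 to 0.73 FPKM in Fn14 KO and 1.03 to 1.38 in Fn14alpha KO, against 2.26 to 2.67 in WT, nearly all of it SERPINA1. The 8 endothelial markers summed to 0.60 to 0.76 FPKM in Fn14 KO and 0.76 to 0.87 in Fn14alpha KO, against 1.56 to 2.08 in WT. Among them TEK averaged 0.29, 0.3125 and 1.46 FPKM in this order. The 7 leukocyte markers summed to 0.98 to 2.10 FPKM in Fn14 KO and 0.68 to 1.34 in Fn14alpha KO, against 1.36 to 1.9 in WT. Among them CD14 averaged 1.115, 0.8675 and 1.345 FPKM in this order. The part of these genes in the collagen results was not tested, and in bulk RNA fewer cells of a type and less RNA per cell cannot be told apart.

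LX-2 expressed 18 of the 39 collagen genes at a mean of at least 1 FPKM (the authors' count scaled by exon length and library total) in a group or more. A further 8 were low, with a highest group mean between 0.27 and 0.86 FPKM: COL2A1, COL4A4, COL5A3, COL8A2, COL9A2, COL9A3, COL17A1 and COL25A1. Another 12 did not pass the count filter, with 2 to 102 counts summed over the 16 libraries and a highest group mean between 0.005 and 0.08 FPKM. They were COL4A3, COL9A1, COL10A1, COL14A1, COL15A1, COL19A1, COL20A1, COL21A1, COL23A1, COL24A1, COL26A1 and COL28A1. COL22A1, a FACIT collagen of tendon junctions, was not detected: 0 counts in 16 libraries, which allows up to 0.00158 FPKM over all of them and 0.00605 to 0.00654 FPKM per group (a floor of 3 counts, counting error only).

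The expressed genes were spread unevenly over the classes. Of 11 fibrillar genes 8 were expressed, 2 low and 1 under the filter. The basement membrane class had 4 expressed, 1 low and 1 under the filter of 6. Among 10 FACIT genes 2 were expressed, 2 low, 5 under the filter and 1 not detected. The transmembrane class had 1 expressed gene, 2 low and 1 under the filter of 4. The short-chain class had 1 of each of these among 3 genes, the multiplexins 1 expressed and 1 under the filter of 2, and COL7A1, the anchoring fibril collagen, was expressed. The 2 genes outside these classes, COL26A1 and COL28A1, were under the filter.

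A few chains dominated in every group. COL1A1, COL5A2, COL4A2, COL4A1 and COL5A1 held 83.3% of the summed collagen FPKM in TWEAK, 87.8% in Fn14alpha KO and 92.2% in Fn14 KO, against 82.3% in WT (means, n = 4). The sum itself was 372 ± 8.45 FPKM in TWEAK, 459.9 ± 24.1 in Fn14alpha KO and 517 ± 22.9 in Fn14 KO, against 372 ± 23.2 FPKM in WT (SD, n = 4). Fibrillar chains made up 74.7%, 66.9% and 65.7% of it in TWEAK, Fn14alpha KO and Fn14 KO, against 75.4% in WT. Basement membrane chains made up 18.3%, 26.4% and 29.2% in the same order, against 17.5% in WT. The 4 libraries of either knockout lay above every WT library in the basement membrane share and below every WT library in the fibrillar share, while TWEAK and WT overlapped in the fibrillar share. These sums were not tested.

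**Figure D1:**
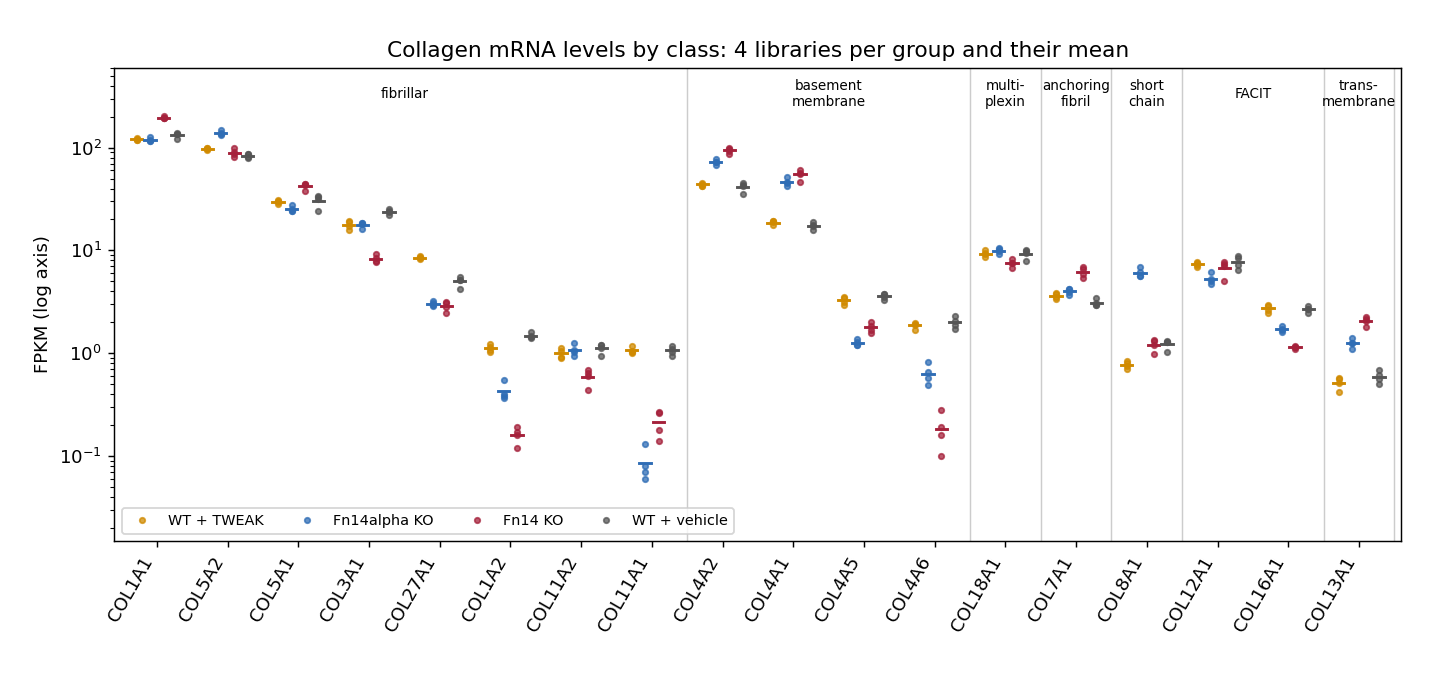
FPKM (log axis) of the 18 expressed collagen genes by class, with 4 libraries (points) and the mean (line) of TWEAK, Fn14alpha KO, Fn14 KO and WT. COL1A1 stands highest except in Fn14alpha KO, where COL5A2 does, and COL1A2 lies at or under 1.62 FPKM in every library although COL1A1 exceeds 100 FPKM.

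The order of levels within a group put COL1A1 above COL5A2 and COL4A2 in TWEAK and WT. In Fn14alpha KO the order was COL5A2, COL1A1, COL4A2 and COL4A1, with no overlap between neighbours. In Fn14 KO COL1A1 led, and COL4A2 and COL5A2, which followed it, overlapped in their library ranges. COL5A1 and COL3A1 overlapped in WT, as did COL4A1 and COL3A1 in TWEAK. At the low end COL13A1 was the lowest expressed member in TWEAK and WT and COL11A1 the lowest in Fn14alpha KO, whereas COL11A1, COL4A6 and COL1A2 overlapped at the bottom in Fn14 KO.

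Of the 26 collagens that passed the filter, 3 rose and 2 fell with TWEAK, that is 19.2% of them, against 6.87% of all 16029 tested genes (4.82% higher, 2.05% lower). In Fn14alpha KO 9 rose and 11 fell (76.9%), against 42.2% of all tested genes (20% higher, 22.2% lower). In Fn14 KO 7 rose and 14 fell (80.8%), against 52.9% of all tested genes (26.6% higher, 26.3% lower). Fn14 KO set directly against Fn14alpha KO gave 10 higher and 13 lower (88.5%), against 59.2% of all tested genes (30.7% higher, 28.5% lower). The median log2 fold change of the 26 was 0.02, −0.13, −0.64 and −0.31 in these 4 comparisons, beside −0.01, 0.01, −0.01 and −0.00 over all tested genes. Libraries of the paired groups did not overlap in scaled counts for 8, 19, 20 and 20 of the 26, beside 15.8%, 39.4%, 42.9% and 51% of all tested genes. The comparisons with WT share its 4 libraries. Scaling by total counts moved the median of all genes by −0.12 in Fn14 KO over WT and by −0.15 in Fn14 KO over Fn14alpha KO, and the collagen splits to 6 higher and 15 lower and to 9 higher and 14 lower. With TWEAK it turned the split to 2 higher and 3 lower, as COL7A1 lost its call and COL1A2 was called lower. Without WT replicate 4 and Fn14 KO replicate 1 the splits were 4 and 3, 9 and 11, 7 and 15, and 10 and 13.

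**Figure D2:**
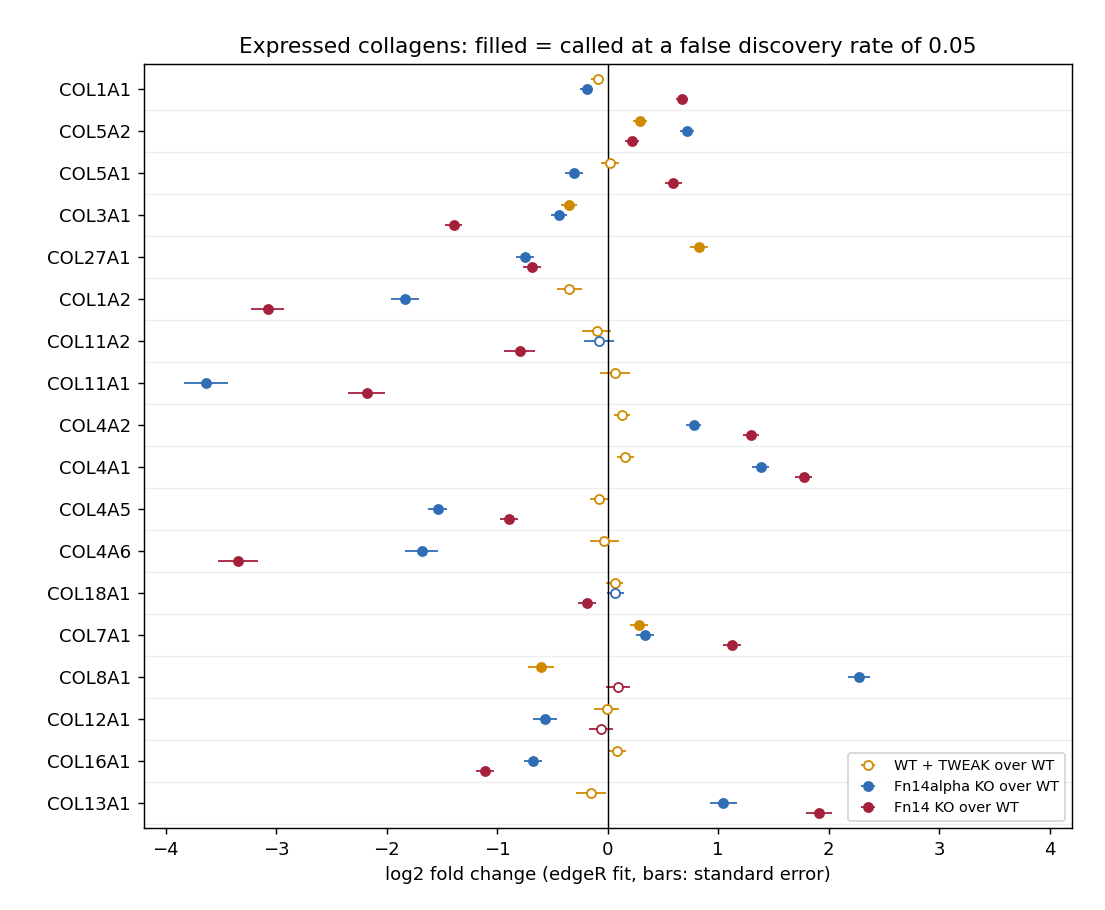
Log2 fold change from the edgeR fit (x axis) of the 18 expressed collagens for TWEAK, Fn14alpha KO and Fn14 KO, each over WT. Bars are approximate standard errors derived from the test statistic. Filled points are called at a false discovery rate of 0.05. The knockout points of COL4A1, COL4A2, COL7A1 and COL13A1 lie right of 0 and those of COL1A2, COL3A1, COL4A5, COL4A6, COL11A1, COL16A1 and COL27A1 left of it.

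The response to 2 h of TWEAK was small in size. COL27A1, COL5A2 and COL7A1 rose, COL3A1 and COL8A1 fell, and edgeR's test passed 0 of the 5 basement membrane, 4 FACIT, 1 multiplexin and 3 transmembrane genes tested. At an unadjusted p under 0.05 it counted 1 transmembrane gene (COL17A1) and 0 of the other 3 classes, and DESeq2 and limma also called 0 in these 4 classes. COL27A1 (ENSG00000196739, chr9:114155537-114312511), a fibrillar collagen of cartilage, had 8.61, 8.37, 8.86 and 8.24 FPKM in TWEAK, against 5.53, 5.17, 5.18 and 4.17 FPKM in WT. All treated libraries lay above all WT libraries, a 1.77-fold rise (log2 fold change 0.82 ± 0.08, adjusted p = 4.66e-08). Both knockouts lay below WT instead, with 3.25, 2.88, 2.92 and 3.11 FPKM in Fn14alpha KO and 2.49, 3.13, 2.81 and 3.06 FPKM in Fn14 KO. The fall was 1.69-fold in Fn14alpha KO (log2 fold change −0.75 ± 0.08, adjusted p = 6.59e-08) and 1.61-fold in Fn14 KO (log2 fold change −0.68 ± 0.08, adjusted p = 1.47e-07), and the difference between the knockouts did not pass the test. The 50 tested genes around COL27A1 on chromosome 9 had a median of −0.40 in Fn14alpha KO, and with that removed its log2 fold change was −0.35 and still called.

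COL7A1 (ENSG00000114270, chr3:48564073-48595329) encodes the collagen of the anchoring fibrils that tie basement membranes to the stroma below. It had 3.36, 3.82, 3.55 and 3.79 FPKM in TWEAK and 4.23, 3.94, 4.23 and 3.67 FPKM in Fn14alpha KO. Fn14 KO libraries had 6.64, 6.92, 5.45 and 5.92 FPKM, against 3.48, 2.92, 2.94 and 3.11 FPKM in WT. Fn14 KO and Fn14alpha KO libraries lay above all WT libraries, whereas TWEAK and WT overlapped in FPKM. The rise was 1.21-fold with TWEAK (log2 fold change 0.28 ± 0.08, adjusted p = 0.0408), 1.26-fold in Fn14alpha KO (log2 fold change 0.34 ± 0.08, adjusted p = 0.00204) and 2.17-fold in Fn14 KO (log2 fold change 1.12 ± 0.08, adjusted p = 4.14e-11). The TWEAK call was lost under 10 of 19 alternatives, with adjusted p from 0.0206 to 0.143: without WT replicate 2, 3 or 4, without TWEAK replicate 2, 3 or 4, with total counts, with either limma fit and with the replicate block. In Fn14 KO the surrounding genes on chromosome 3 had a median of 0.58, and with that removed COL7A1 stood at 0.55 and still called. COL7A1 was 1.72-fold higher in Fn14 KO than in Fn14alpha KO (log2 fold change 0.78 ± 0.08, adjusted p = 1.25e-08), a call that ended with the neighbours' median removed (log2 fold change 0.13, adjusted p = 0.186).

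The 250 bases before the RefSeq starts of COL27A1 and COL7A1 (GRCh38.p14) are shown because these genes rose within 2 h of TWEAK, a cytokine known to activate NF-kB. COL27A1 is at chr9:114155287-114155536 on the plus strand and COL7A1 at chr3:48595330-48595579 on the minus strand. Capitals mark the letters of 4 promoter motifs on either strand, and no 2 matches overlap.
COL27A1: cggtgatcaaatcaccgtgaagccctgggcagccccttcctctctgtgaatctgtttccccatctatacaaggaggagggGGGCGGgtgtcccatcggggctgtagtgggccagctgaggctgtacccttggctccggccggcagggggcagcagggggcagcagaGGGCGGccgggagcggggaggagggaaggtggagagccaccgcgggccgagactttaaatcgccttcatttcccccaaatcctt
COL7A1: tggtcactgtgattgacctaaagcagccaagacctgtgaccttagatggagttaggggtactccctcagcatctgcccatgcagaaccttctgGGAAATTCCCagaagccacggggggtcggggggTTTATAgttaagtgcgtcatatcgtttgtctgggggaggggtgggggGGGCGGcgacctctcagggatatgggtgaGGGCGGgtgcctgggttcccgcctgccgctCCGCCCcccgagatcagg
The motifs were sought in 35116 such windows of all genes. The TATA box, spelled TATAAA, occurred in 10.7% of the windows. The CCAAT box, which its name spells, occurred in 32.0% of them. The GC box, spelled GGGCGG, occurred in 42.6%. The motif bound by NF-kB was sought only as GGGNNTTTCC, which occurred in 1.73%, and its other spellings were not sought. COL27A1 held 2 GC boxes, and COL7A1 held 3 GC boxes, 1 TATA match and 1 match to the NF-kB motif, the last 2 read on the strand opposite the gene. A window was found for 29 of the 39 members and 13 of the 18 expressed ones. Among those 13, COL7A1 held this spelling of the NF-kB motif in its window and the others, COL27A1 included, did not. A match is a description of letters, not a site in use. The expressed members with no window were COL1A1, COL1A2, COL3A1, COL5A2 and COL8A1.

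The type I and III chains, the main collagens of liver scar, moved apart in Fn14 KO: COL1A1 rose while COL1A2 and COL3A1 fell. COL1A1 (ENSG00000108821, chr17:50184101-50201632), which encodes the alpha1 chain of type I collagen, had 121, 119, 124 and 118 FPKM in TWEAK and 127, 117, 116 and 118 FPKM in Fn14alpha KO. It had 193, 205, 192 and 193 FPKM in Fn14 KO, against 137, 135, 140.3 and 122 FPKM in WT. Every Fn14 KO library lay above every other library, whereas Fn14alpha KO and WT overlapped. The rise in Fn14 KO was 1.59-fold (log2 fold change 0.67 ± 0.06, adjusted p = 8.18e-10), and Fn14alpha KO was 1.14-fold lower than WT (log2 fold change −0.19 ± 0.06, adjusted p = 0.0102). Between the knockouts COL1A1 was 1.82-fold higher in Fn14 KO (log2 fold change 0.86 ± 0.06, adjusted p = 7.72e-12).

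COL1A2 (ENSG00000164692, chr7:94394895-94431227), which encodes the alpha2 chain that usually joins alpha1 in type I collagen, was scarce. Its levels were 1.22, 1.15, 1.07 and 1.03 FPKM in TWEAK and 0.38, 0.37, 0.55 and 0.40 FPKM in Fn14alpha KO. Fn14 KO libraries had 0.17, 0.12, 0.16 and 0.19 FPKM, against 1.42, 1.43, 1.62 and 1.46 FPKM in WT. The 4 groups did not overlap, with WT highest, then TWEAK, Fn14alpha KO and Fn14 KO. It fell 3.56-fold in Fn14alpha KO (log2 fold change −1.83 ± 0.13, adjusted p = 3.09e-11) and 8.45-fold in Fn14 KO (log2 fold change −3.08 ± 0.15, adjusted p = 1.29e-14). Between the knockouts Fn14 KO was 2.37-fold lower (log2 fold change −1.25 ± 0.17, adjusted p = 8.88e-07). TWEAK did not pass edgeR's test (adjusted p = 0.0609). COL1A2 was called lower with TWEAK by total counts, by limma on log2(FPKM + 1) and without WT replicate 4 and Fn14 KO replicate 1. DESeq2 and limma on log2(FPKM + 0.1) did not call it. The FPKM of COL1A1 over that of COL1A2 was 108 ± 8.29 in TWEAK, 289 ± 54.0 in Fn14alpha KO and 1266 ± 304 in Fn14 KO, against 90.2 ± 6.07 in WT (SD, n = 4). The ranges of this ratio, 98.9 to 116, 211 to 334 and 1016 to 1707, against 83.6 to 96.3, did not overlap. Among the 16029 tested genes COL1A1 ranked 283, 280 and 152 by FPKM in TWEAK, Fn14alpha KO and Fn14 KO, against 255 in WT, and COL1A2 ranked 11490, 13814 and 14683, against 10915 in WT.

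COL3A1 (ENSG00000168542, chr2:188974373-189012746), whose homotrimer accompanies type I in early scar, had 15.6, 19.5, 17.3 and 19.02 FPKM in TWEAK and 18.6, 16.1, 18.6 and 18.2 FPKM in Fn14alpha KO. It had 8.46, 7.93, 7.72 and 9.2 FPKM in Fn14 KO, against 23.9, 25.3, 23.4 and 22.3 FPKM in WT. WT lay above every other group, and Fn14 KO below every other group. COL3A1 fell 1.28-fold with TWEAK (log2 fold change −0.35 ± 0.07, adjusted p = 0.0021), 1.36-fold in Fn14alpha KO (log2 fold change −0.44 ± 0.07, adjusted p = 2.39e-05) and 2.63-fold in Fn14 KO (log2 fold change −1.39 ± 0.07, adjusted p = 1.37e-13). Fn14 KO was 1.93-fold below Fn14alpha KO (log2 fold change −0.95 ± 0.07, adjusted p = 1.09e-10). The ratio of COL1A1 to COL3A1 averaged 6.79 in TWEAK, 6.71 in Fn14alpha KO and 23.7 in Fn14 KO, against 5.62 in WT.

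**Figure D3:**
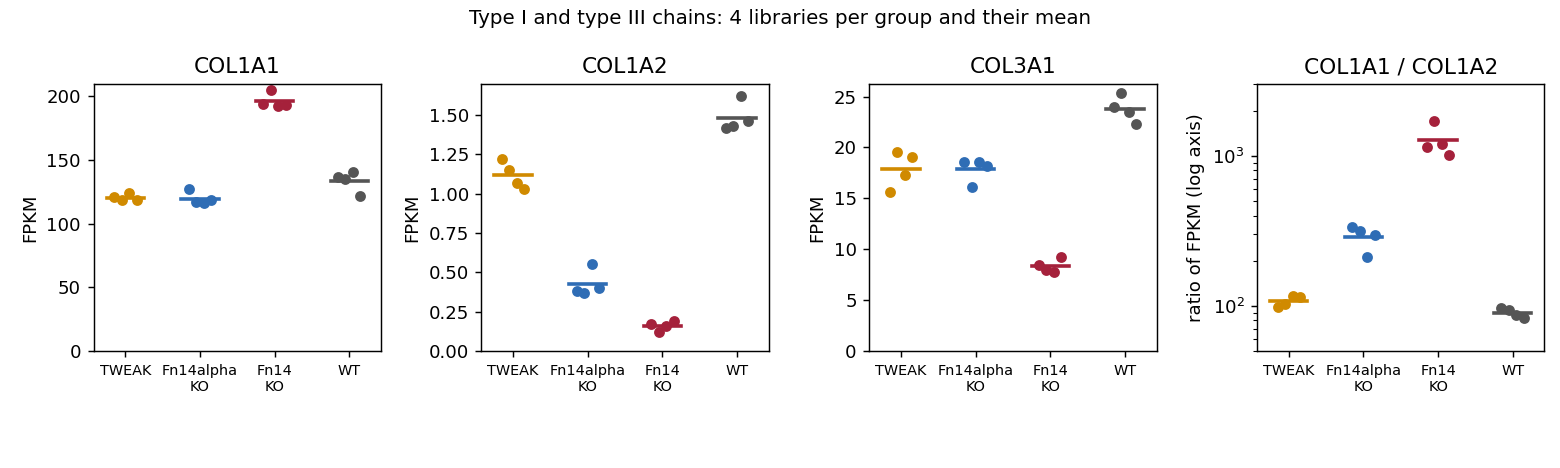
FPKM of COL1A1, COL1A2 and COL3A1 and the ratio of COL1A1 to COL1A2 (log axis) in 4 libraries (points) and their mean (line) for TWEAK, Fn14alpha KO, Fn14 KO and WT. In Fn14 KO COL1A1 lies at 192 to 205 FPKM and COL1A2 at 0.12 to 0.19 FPKM, and the ratio lies at 1016 to 1707.

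Type V chains, which join type I fibres and limit their width, did not move together. COL5A1 (ENSG00000130635, chr9:134641803-134844843) had 29.4, 30.2, 30.8 and 28.6 FPKM in TWEAK and 27.4, 24.4, 25.2 and 24.01 FPKM in Fn14alpha KO. It had 37.9, 43.3, 44.5 and 43.95 FPKM in Fn14 KO, against 32.8, 33.5, 31.5 and 24.3 FPKM in WT. Fn14 KO lay above all other libraries, and Fn14alpha KO overlapped WT through WT replicate 4. COL5A1 rose 1.51-fold in Fn14 KO (log2 fold change 0.59 ± 0.08, adjusted p = 8.78e-07) and was 1.86-fold higher there than in Fn14alpha KO (log2 fold change 0.90 ± 0.08, adjusted p = 9.24e-10). It fell 1.24-fold in Fn14alpha KO (log2 fold change −0.31 ± 0.08, adjusted p = 0.00316). That call ended once the median of the neighbouring genes on chromosome 9, −0.24, was removed (log2 fold change −0.06, adjusted p = 0.586).

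COL5A2 (ENSG00000204262, chr2:189031898-189225312) had 96.3, 99.03, 99.9 and 93.9 FPKM in TWEAK and 149.8, 132, 137 and 138 FPKM in Fn14alpha KO. It had 80.1, 86.4, 91.2 and 98.4 FPKM in Fn14 KO, against 86.01, 86.3, 78.7 and 80.6 FPKM in WT. TWEAK and Fn14alpha KO lay above all WT libraries, whereas Fn14 KO and WT overlapped in FPKM. COL5A2 rose 1.22-fold with TWEAK (log2 fold change 0.29 ± 0.06, adjusted p = 0.00406) and 1.64-fold in Fn14alpha KO (log2 fold change 0.72 ± 0.06, adjusted p = 2.66e-09). Its 1.16-fold rise in Fn14 KO (log2 fold change 0.22 ± 0.06, adjusted p = 0.00514) lost its call when libraries were scaled by total counts or tested on FPKM, with adjusted p up to 0.197. Fn14 KO was 1.41-fold below Fn14alpha KO (log2 fold change −0.50 ± 0.06, adjusted p = 3.46e-07). The FPKM of COL5A2 over that of COL5A1 averaged 3.27 in TWEAK, 5.52 in Fn14alpha KO and 2.10 in Fn14 KO, against 2.75 in WT. COL5A2 lies tail to tail with COL3A1 on chromosome 2, with 19151 bases between them in the deposited coordinates. The neighbours moved in opposite directions in Fn14alpha KO and in Fn14 KO. The scalings that end the call on COL5A2 in Fn14 KO did not change its direction.

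Type XI chains, close relatives of type V best known from cartilage, stood near 1 FPKM in WT. COL11A1 (ENSG00000060718, chr1:102876467-103108872) had 1.17, 1.04, 1.01 and 1.06 FPKM in TWEAK and 0.08, 0.06, 0.13 and 0.07 FPKM in Fn14alpha KO. It had 0.14, 0.27, 0.18 and 0.26 FPKM in Fn14 KO, against 1.18, 1.04, 0.95 and 1.1 FPKM in WT. Both knockouts lay far below TWEAK and WT, which overlapped. The fall was 12.4-fold in Fn14alpha KO (log2 fold change −3.64 ± 0.20, adjusted p = 6.71e-13), the largest among expressed collagens in that comparison, and 4.53-fold in Fn14 KO (log2 fold change −2.18 ± 0.17, adjusted p = 1.04e-10). Fn14 KO stood 2.74-fold above Fn14alpha KO (log2 fold change 1.46 ± 0.25, adjusted p = 2.45e-05), with library ranges that nearly touch. COL11A2 (ENSG00000204248, chr6:33162681-33192499) had 1.05, 0.90, 0.91 and 1.13 FPKM in TWEAK and 1.27, 1.03, 1.07 and 0.94 FPKM in Fn14alpha KO. In Fn14 KO it had 0.44, 0.64, 0.60 and 0.68 FPKM, against 1.2, 1.19, 1.13 and 0.94 FPKM in WT. Fn14 KO lay below every other library, a 1.74-fold fall against WT (log2 fold change −0.80 ± 0.14, adjusted p = 4.11e-05) and a 1.65-fold difference from Fn14alpha KO (log2 fold change −0.72 ± 0.14, adjusted p = 0.000136).

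Of the 10 tested fibrillar genes, 2 rose and 1 fell with TWEAK, 2 rose and 7 fell in Fn14alpha KO, and 3 rose and 7 fell in Fn14 KO. Over all tested genes 6.87%, 42.2% and 52.9% were called in these comparisons. The low fibrillar members moved too. COL2A1, the main cartilage collagen, had 0.09, 0.18, 0.16 and 0.09 FPKM in TWEAK and 0.47, 0.49, 0.41 and 0.44 FPKM in Fn14alpha KO. It was at 0 in all 4 Fn14 KO libraries, against 0.17, 0.16, 0.13 and 0.10 FPKM in WT. Summed over 4 libraries its counts were 52 in TWEAK, 176 in Fn14alpha KO and 0 in Fn14 KO, against 59 in WT. With a floor of 3 counts over the group, Fn14 KO was at least 17.7-fold lower than WT and at least 55.7-fold lower than Fn14alpha KO, and the count of 0 allows up to 0.00734 FPKM. COL5A3, the third type V chain, had 0.79, 0.90, 0.81 and 0.94 FPKM in TWEAK and 0.32, 0.27, 0.29 and 0.25 FPKM in Fn14alpha KO. It had 0.04, 0.00, 0.00 and 0.01 FPKM in Fn14 KO, against 0.53, 0.58, 0.67 and 0.69 FPKM in WT, and was called lower in both knockouts. Its log2 fold change in Fn14 KO was −5.44, and −7.05 without Fn14 KO replicate 1, the highest of the 4 libraries. With TWEAK all libraries lay above all WT libraries, but edgeR did not call COL5A3 (log2 fold change 0.53, adjusted p = 0.0752). DESeq2, limma on log2(FPKM + 1) and the fit without WT replicate 4 and Fn14 KO replicate 1 called it higher. Total counts and limma on log2(FPKM + 0.1) did not. No library of either knockout reached the WT range of COL5A3, and no Fn14 KO library reached any other group's range of COL2A1.

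Basement membrane chains split by gene pair in both knockouts: COL4A1 and COL4A2, the common chains of vessel and sinusoidal membranes, rose, while COL4A5 and COL4A6, chains of specialised membranes, fell. COL4A1 (ENSG00000187498, chr13:110148963-110307157) had 19.2, 18.7, 19.3 and 17.6 FPKM in TWEAK and 52.1, 42.4, 45.6 and 45.96 FPKM in Fn14alpha KO. It had 46.2, 55.8, 56.8 and 60.7 FPKM in Fn14 KO, against 17.8, 19, 17.2 and 15.7 FPKM in WT. Every knockout library lay far above every WT library, TWEAK overlapped WT, and the knockouts overlapped each other through Fn14 KO replicate 1. COL4A1 rose 2.61-fold in Fn14alpha KO (log2 fold change 1.38 ± 0.08, adjusted p = 1.12e-12) and 3.42-fold in Fn14 KO (log2 fold change 1.77 ± 0.08, adjusted p = 4.69e-15). COL4A2 (ENSG00000134871, chr13:110305812-110513209) had 42.3, 44.5, 45.8 and 42.6 FPKM in TWEAK and 78.2, 72.4, 72.96 and 68.1 FPKM in Fn14alpha KO. It had 86.8, 97.5, 99.8 and 93.3 FPKM in Fn14 KO, against 43.5, 45.6, 42.2 and 35.4 FPKM in WT. Its 3 levels did not overlap: Fn14 KO was highest, Fn14alpha KO between, and TWEAK and WT lay together below. COL4A2 rose 1.71-fold in Fn14alpha KO (log2 fold change 0.78 ± 0.07, adjusted p = 4.96e-09) and 2.46-fold in Fn14 KO (log2 fold change 1.30 ± 0.07, adjusted p = 2.59e-13).

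COL4A1 rose more than its partner, and the FPKM of COL4A2 over that of COL4A1 averaged 2.35 in TWEAK, 1.57 in Fn14alpha KO and 1.73 in Fn14 KO, against 2.39 in WT. Fn14 KO exceeded Fn14alpha KO by 1.31-fold in COL4A1 (log2 fold change 0.39 ± 0.08, adjusted p = 0.000128) and by 1.43-fold in COL4A2 (log2 fold change 0.52 ± 0.07, adjusted p = 9.49e-07). Neighbouring genes on chromosome 13 moved as well. The 50 tested genes around the pair had a median of 0.73 in Fn14 KO, and the 213 genes of chromosome 13 at a mean of at least 2 log2 CPM one of 0.45. With the neighbours' median removed, COL4A1 stood at 1.04 and COL4A2 at 0.56 in Fn14 KO over WT, both still called. Between the knockouts the same step left 0.02 for COL4A2 and turned COL4A1 to −0.09 (adjusted p = 0.328). The deposited intervals of the pair overlap by 1346 bases on opposite strands, and with the strand setting unknown here, reads from that stretch cannot be assigned to either gene.

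The pair is transcribed outward from a shared stretch, which is shown because both genes rose together in the knockouts. RefSeq starts (GRCh38.p14) lie 126 bases apart, and these bases, chr13:110307158-110307283, are given on the minus strand, that of COL4A1. The same motifs were sought, and capitals mark 1 GC box and 1 CCAAT box, both on the strand of COL4A2. The second stretch, chrX:108439459-108439708 on the minus strand, is the 250 bases before the start of COL4A6 that lies 379 bases from that of COL4A5; its capitals mark 3 CCAAT boxes.
COL4A1: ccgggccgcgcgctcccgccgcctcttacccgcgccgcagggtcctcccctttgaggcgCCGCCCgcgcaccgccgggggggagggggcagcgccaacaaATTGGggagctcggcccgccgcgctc
COL4A6: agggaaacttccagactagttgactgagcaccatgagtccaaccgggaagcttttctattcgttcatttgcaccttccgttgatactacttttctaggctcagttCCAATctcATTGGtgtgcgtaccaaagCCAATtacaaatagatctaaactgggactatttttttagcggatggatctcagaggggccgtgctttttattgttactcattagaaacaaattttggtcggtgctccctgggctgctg
The shared stretch of COL4A1 and COL4A2 is 80.2% G and C, against 44.0% before COL4A6, and no GC box letters occur in the stretch shown before COL4A6. RefSeq gives COL4A6 a second start, whose window holds 1 GC box.

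COL4A5 (ENSG00000188153, chrX:108439838-108697545), a chain of the glomerular and skin membranes, had 2.96, 3.47, 3.18 and 3.52 FPKM in TWEAK and 1.39, 1.19, 1.21 and 1.29 FPKM in Fn14alpha KO. It had 1.69, 1.83, 1.59 and 2.03 FPKM in Fn14 KO, against 3.76, 3.79, 3.54 and 3.33 FPKM in WT. Fn14alpha KO lay lowest, Fn14 KO next and WT above both, with no overlap among these 3 groups. The fall was 2.9-fold in Fn14alpha KO (log2 fold change −1.54 ± 0.09, adjusted p = 8.54e-13) and 1.86-fold in Fn14 KO (log2 fold change −0.89 ± 0.08, adjusted p = 2.51e-09). COL4A6 (ENSG00000197565, chrX:108155607-108439497), its partner in smooth muscle and skin membranes, had 1.7, 1.97, 1.94 and 1.87 FPKM in TWEAK and 0.82, 0.57, 0.65 and 0.49 FPKM in Fn14alpha KO. It had 0.10, 0.16, 0.28 and 0.19 FPKM in Fn14 KO, against 2.29, 2.07, 1.89 and 1.72 FPKM in WT. Here Fn14 KO lay lowest and Fn14alpha KO next, again without overlap, while TWEAK and WT overlapped. COL4A6 fell 3.21-fold in Fn14alpha KO (log2 fold change −1.68 ± 0.15, adjusted p = 2.66e-09) and 10.2-fold in Fn14 KO (log2 fold change −3.35 ± 0.18, adjusted p = 1.65e-13).

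Set directly against Fn14alpha KO, Fn14 KO had 1.56-fold more COL4A5 (log2 fold change 0.64 ± 0.09, adjusted p = 1.15e-06) and 3.17-fold less COL4A6 (log2 fold change −1.66 ± 0.21, adjusted p = 2.38e-07). The FPKM of COL4A5 over that of COL4A6 averaged 1.76 in TWEAK, 2.07 in Fn14alpha KO and 11.2 in Fn14 KO, against 1.82 in WT. Other X-linked genes were lower in Fn14alpha KO too, with a median of −0.69 over 386 genes of the chromosome, beside 0.08 in Fn14 KO. The neighbours of the pair had medians of −0.89 and −0.91 in Fn14alpha KO. With these removed COL4A5 stood at −0.65 (adjusted p = 2.64e-06) and COL4A6 at −0.77 (adjusted p = 0.000321). Between the knockouts the same step turned COL4A5 to −0.29 (adjusted p = 0.00921) and moved COL4A6 to −2.61, still called.

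The low chain COL4A4, a partner of COL4A3 and COL4A5 in the kidney, had 0.26, 0.33, 0.23 and 0.24 FPKM in TWEAK and 0.33, 0.23, 0.23 and 0.29 FPKM in Fn14alpha KO. It had 0.09, 0.05, 0.01 and 0.05 FPKM in Fn14 KO, against 0.29, 0.32, 0.28 and 0.19 FPKM in WT, and no Fn14 KO library reached another group's range. COL4A3, which starts 418 bases away on the other strand, had 61 counts in 16 libraries. Of the 5 tested basement membrane genes 0 passed with TWEAK by edgeR, DESeq2 or limma (COL4A1 had the lowest edgeR p, 0.0501 unadjusted and 0.244 adjusted). In Fn14alpha KO 2 rose and 2 fell, and in Fn14 KO 2 rose and 3 fell. The shares called over all tested genes were 6.87%, 42.2% and 52.9%.

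**Figure D4:**
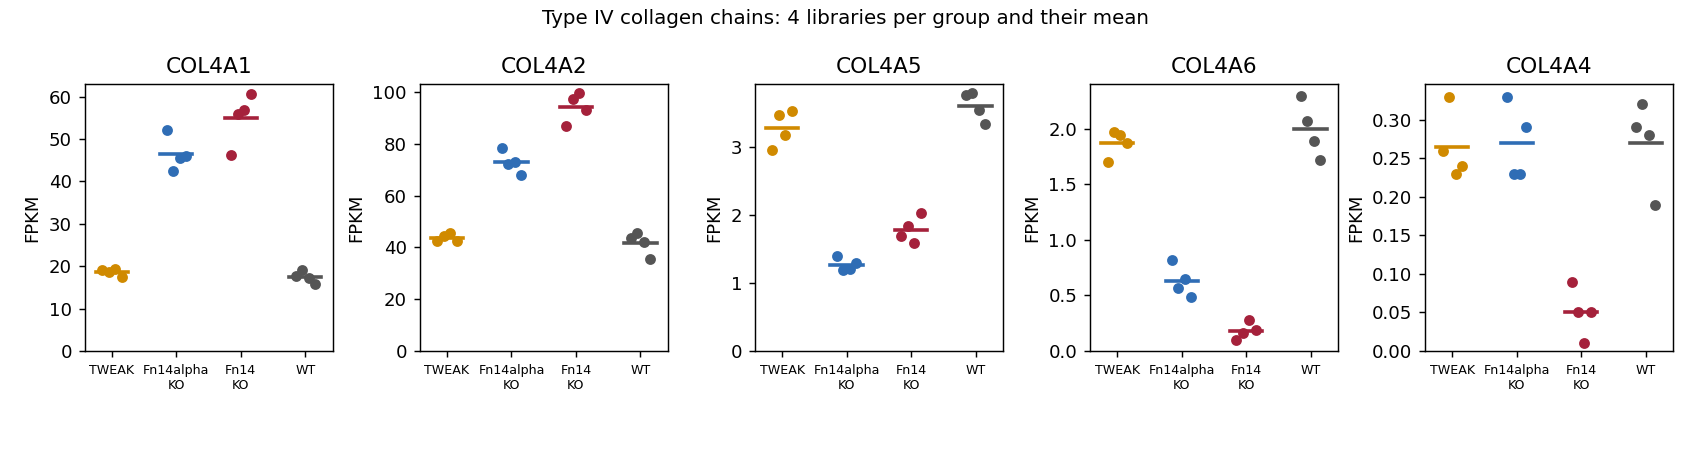
FPKM of COL4A1, COL4A2, COL4A5, COL4A6 and COL4A4 in 4 libraries (points) and their mean (line) for TWEAK, Fn14alpha KO, Fn14 KO and WT, each panel with its own axis from 0. The first 2 panels rise and the next 2 fall in both knockouts, and COL4A4 is low in Fn14 KO, at 0.01 to 0.09 FPKM.

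FACIT collagens were mostly silent. COL12A1 (ENSG00000111799, chr6:75084326-75206267), which coats type I fibres, had 7.15, 7.57, 7.73 and 6.91 FPKM in TWEAK and 6.14, 5.04, 4.75 and 5.32 FPKM in Fn14alpha KO. It had 5.07, 7.08, 7.37 and 7.75 FPKM in Fn14 KO, against 8.44, 8.83, 7.17 and 6.39 FPKM in WT. Fn14alpha KO lay below all WT libraries, a 1.48-fold fall (log2 fold change −0.57 ± 0.11, adjusted p = 0.000344), whereas Fn14 KO overlapped WT and did not pass the test. Fn14 KO was 1.42-fold above Fn14alpha KO (log2 fold change 0.51 ± 0.11, adjusted p = 0.000569), with replicate 1 inside the range of Fn14alpha KO. That call ended once the median of the neighbouring genes was removed (log2 fold change 0.18, adjusted p = 0.197). COL16A1 (ENSG00000084636, chr1:31652263-31704319), a minor fibre-associated collagen, had 2.49, 2.64, 2.97 and 2.86 FPKM in TWEAK and 1.84, 1.69, 1.61 and 1.72 FPKM in Fn14alpha KO. It had 1.16, 1.14, 1.11 and 1.17 FPKM in Fn14 KO, against 2.7, 2.49, 2.85 and 2.7 FPKM in WT. The knockouts did not overlap each other or WT, and COL16A1 fell 1.6-fold in Fn14alpha KO (log2 fold change −0.68 ± 0.08, adjusted p = 3.1e-07) and 2.16-fold in Fn14 KO (log2 fold change −1.11 ± 0.08, adjusted p = 7.75e-11). Fn14 KO was 1.35-fold below Fn14alpha KO (log2 fold change −0.43 ± 0.09, adjusted p = 0.00016).

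The low FACIT gene COL9A3, a chain of the type IX collagen of cartilage, had 0.19, 0.15, 0.22 and 0.22 FPKM in TWEAK and 0.65, 0.65, 0.47 and 0.68 FPKM in Fn14alpha KO. It had 0.00, 0.01, 0.03 and 0.01 FPKM in Fn14 KO, against 0.14, 0.20, 0.27 and 0.18 FPKM in WT. Fn14alpha KO lay above and Fn14 KO below every WT library. The gene overlaps TCFL5, an expressed gene on the other strand, by 155 bases, and reads from that stretch cannot be assigned without the strand setting. Of the 4 tested FACIT genes 1 rose and 2 fell in Fn14alpha KO, and 2 fell in Fn14 KO. Over all tested genes 42.2% and 52.9% were called, so the FACIT share in Fn14 KO, 50%, lay close to that background.

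Transmembrane collagens were represented by COL13A1 (ENSG00000197467, chr10:69801880-69964275), an adhesion molecule of the cell surface and neuromuscular junction. It had 0.56, 0.51, 0.42 and 0.57 FPKM in TWEAK and 1.4, 1.26, 1.25 and 1.11 FPKM in Fn14alpha KO. Fn14 KO libraries had 2.16, 2.24, 2.06 and 1.79 FPKM, against 0.50, 0.56, 0.62 and 0.69 FPKM in WT. The 4 libraries of each knockout lay above WT, and those of Fn14 KO above those of Fn14alpha KO. COL13A1 rose 2.06-fold in Fn14alpha KO (log2 fold change 1.05 ± 0.12, adjusted p = 2e-07) and 3.76-fold in Fn14 KO (log2 fold change 1.91 ± 0.12, adjusted p = 1.55e-12), and Fn14 KO exceeded Fn14alpha KO 1.82-fold (log2 fold change 0.87 ± 0.11, adjusted p = 2.72e-07). Of the 3 tested transmembrane genes, COL13A1, COL17A1 and COL25A1, 2 rose in Fn14alpha KO and 1 in Fn14 KO. The shares called over all tested genes were 42.2% and 52.9%. Among the 3 transmembrane genes edgeR, DESeq2 and limma called 0 lower in either knockout. At an unadjusted p under 0.05 edgeR counted 3 of them in Fn14alpha KO and 1 in Fn14 KO. The uncalled one in Fn14alpha KO, COL17A1, lay lower than in WT (log2 fold change −0.38, unadjusted p = 0.0482, adjusted p = 0.0981).

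The short-chain collagen COL8A1 (ENSG00000144810, chr3:99638475-99799226), part of the type VIII network of vessel walls and Descemet's membrane, had 0.84, 0.75, 0.80 and 0.71 FPKM in TWEAK and 6.88, 5.6, 5.66 and 6.2 FPKM in Fn14alpha KO. It had 0.99, 1.34, 1.19 and 1.32 FPKM in Fn14 KO, against 1.3, 1.31, 1.02 and 1.29 FPKM in WT. Fn14alpha KO stood far above every other library, TWEAK below every other library, and Fn14 KO overlapped WT. COL8A1 rose 4.83-fold in Fn14alpha KO (log2 fold change 2.27 ± 0.10, adjusted p = 1.24e-14), the largest rise of an expressed collagen there, and fell 1.52-fold with TWEAK (log2 fold change −0.60 ± 0.12, adjusted p = 0.00109). Fn14 KO was 4.52-fold below Fn14alpha KO (log2 fold change −2.18 ± 0.10, adjusted p = 7.17e-15) and did not pass the test against WT (adjusted p = 0.492). Of the 2 tested short-chain genes 1 fell with TWEAK, 1 rose in Fn14alpha KO and 1 fell in Fn14 KO. Over all tested genes 6.87%, 42.2% and 52.9% were called. The gene that fell in Fn14 KO was the low COL8A2, which averaged 0.065 FPKM there, against 0.28 FPKM in WT, with overlapping libraries.

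COL18A1 (ENSG00000182871, chr21:45405165-45513720), a multiplexin of basement membranes and the source of endostatin, had 8.58, 9.3, 10.02 and 9.44 FPKM in TWEAK and 10.6, 9.77, 10.4 and 9.14 FPKM in Fn14alpha KO. It had 7.61, 7.53, 8.22 and 6.74 FPKM in Fn14 KO, against 10.03, 9.87, 9.44 and 7.89 FPKM in WT. Fn14 KO and WT overlapped, and the 1.14-fold fall (log2 fold change −0.19 ± 0.08, adjusted p = 0.048) lost its call under 8 of 19 alternatives: without WT replicate 1, 2 or 3, without Fn14 KO replicate 2 or 4, with no filter on low counts, with the pair of groups fitted alone and with the neighbours' median removed (adjusted p up to 0.332). Fn14 KO was 1.2-fold below Fn14alpha KO (log2 fold change −0.26 ± 0.08, adjusted p = 0.00747), and that call ended once the median of the neighbouring genes was removed. COL18A1 overlaps SLC19A1 by 20149 bases on the other strand, so reads of the pair cannot be told apart there without the strand setting.

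**Figure D5:**
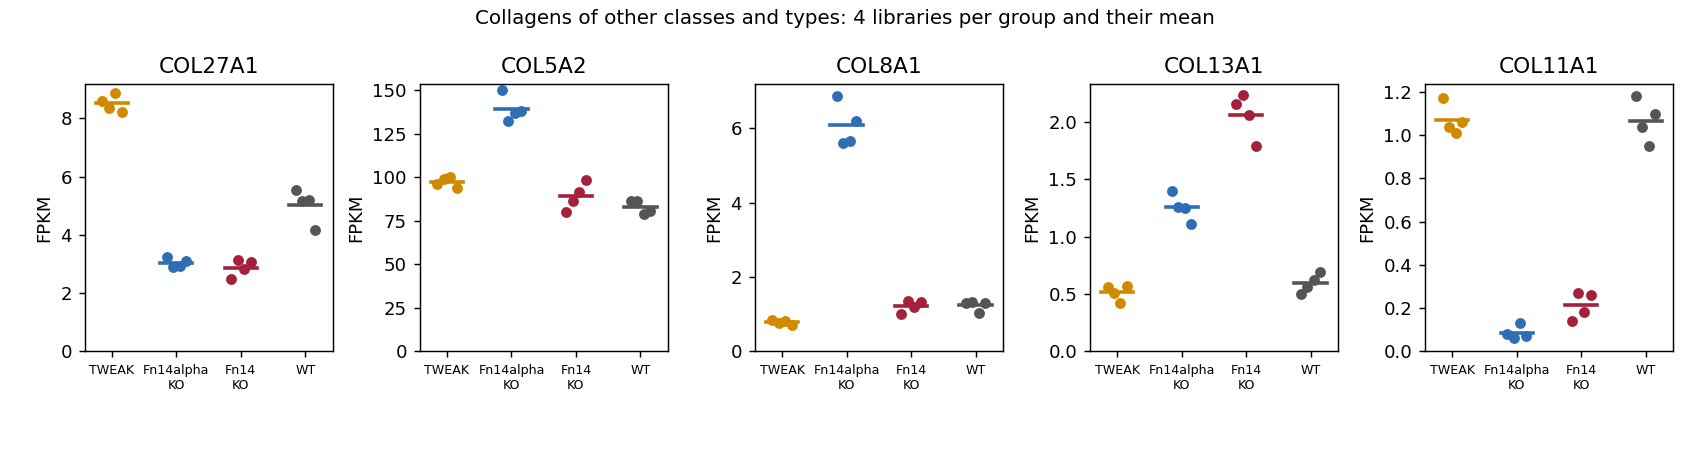
FPKM of COL27A1, COL5A2, COL8A1, COL13A1 and COL11A1 in 4 libraries (points) and their mean (line) for TWEAK, Fn14alpha KO, Fn14 KO and WT, each panel with its own axis from 0. COL27A1 is highest in TWEAK, COL5A2 and COL8A1 in Fn14alpha KO, COL13A1 in Fn14 KO, and COL11A1 lies at or under 0.27 FPKM in both knockouts.

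The genes that make, secrete, trim and cross-link collagen were set beside the chains. All 31 of this list were tested: 3 rose with TWEAK, 8 rose and 4 fell in Fn14alpha KO, and 7 rose and 16 fell in Fn14 KO, with median log2 fold changes of 0.03, 0.10 and −0.24. The shares called over all tested genes were 6.87%, 42.2% and 52.9%, and in Fn14alpha KO the list lay close to that background. P3H2, a prolyl 3-hydroxylase, averaged 6.78 ± 0.367 FPKM in TWEAK, 3.30 ± 0.252 in Fn14alpha KO and 0.557 ± 0.0932 in Fn14 KO, against 5.05 ± 0.182 FPKM in WT (SD, n = 4). It rose 1.4-fold with TWEAK (log2 fold change 0.48 ± 0.08, adjusted p = 0.000265). The gene fell 1.56-fold in Fn14alpha KO (log2 fold change −0.64 ± 0.09, adjusted p = 1.61e-06) and 8.36-fold in Fn14 KO (log2 fold change −3.06 ± 0.11, adjusted p = 4.69e-17). LARP6, which binds type I collagen mRNA, rose 1.27-fold with TWEAK (log2 fold change 0.34 ± 0.07, adjusted p = 0.00149), as did the cross-linking oxidase LOXL2 at 1.17-fold (log2 fold change 0.23 ± 0.07, adjusted p = 0.0434). P3H3 fell 3.46-fold in Fn14 KO (log2 fold change −1.79 ± 0.09, adjusted p = 2.74e-14).

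ADAMTS2, which removes the amino-terminal propeptide of fibrillar procollagens, averaged 3.65 ± 0.235 FPKM in Fn14 KO (SD, n = 4). It had 2014 counts over the 4 Fn14 KO libraries, 1 in Fn14alpha KO and 1 in TWEAK, against 5 in WT. The gene passed the count filter only through Fn14 KO, so no p-value is given. Its edgeR log2 fold change over WT, 8.66, rests on those 5 WT counts. TLL1, a protease of the carboxy-terminal propeptide, averaged 1.86 ± 0.276 FPKM in Fn14alpha KO, against 0.190 ± 0.0497 FPKM in WT, and rose 9.42-fold (log2 fold change 3.24 ± 0.21, adjusted p = 1.04e-11). LOXL1, another cross-linking oxidase, rose 2.26-fold in Fn14alpha KO (log2 fold change 1.18 ± 0.11, adjusted p = 3.83e-09), and PCOLCE, which enhances removal of that propeptide, fell 1.9-fold (log2 fold change −0.93 ± 0.09, adjusted p = 1.21e-08). Between the knockouts, 9 of the 31 rose and 18 fell in Fn14 KO relative to Fn14alpha KO, at a median of −0.33, beside 59.2% of all tested genes called. TLL1 was 18.8-fold lower there (log2 fold change −4.23 ± 0.24, adjusted p = 2.7e-13) and LOXL3 5.48-fold lower (log2 fold change −2.45 ± 0.19, adjusted p = 6.24e-11).

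Of 11 collagen receptors 9 were tested, and 1 rose with TWEAK, 2 rose and 7 fell in Fn14alpha KO, and 3 rose and 5 fell in Fn14 KO (medians 0.09, −0.33 and −0.37), beside 6.87%, 42.2% and 52.9% of all tested genes called in either direction. ADGRG1, an adhesion receptor that binds type III collagen, averaged 4.0 ± 0.404 FPKM in TWEAK, 1.69 ± 0.0802 in Fn14alpha KO and 0.403 ± 0.0964 in Fn14 KO, against 2.08 ± 0.315 FPKM in WT (SD, n = 4). It rose 2.0-fold with TWEAK (log2 fold change 1.00 ± 0.11, adjusted p = 7e-07). The receptor fell 1.26-fold in Fn14alpha KO (log2 fold change −0.33 ± 0.12, adjusted p = 0.0282) and 4.73-fold in Fn14 KO (log2 fold change −2.24 ± 0.14, adjusted p = 3.03e-12). The integrin subunit ITGB1, the shared beta chain of the collagen-binding integrins, averaged 33.7 ± 3.24 FPKM in Fn14alpha KO, against 81.1 ± 4.58 FPKM in WT, a 2.46-fold fall (log2 fold change −1.30 ± 0.09, adjusted p = 1.53e-11). ITGA2, an alpha chain of these integrins, fell 3.6-fold in Fn14alpha KO (log2 fold change −1.85 ± 0.14, adjusted p = 9.36e-10) and 2.76-fold in Fn14 KO (log2 fold change −1.47 ± 0.14, adjusted p = 1.12e-08). The receptor tyrosine kinase DDR1 rose 1.5-fold in Fn14alpha KO (log2 fold change 0.59 ± 0.08, adjusted p = 1.93e-06), and ITGA10 rose 3.63-fold in Fn14 KO (log2 fold change 1.86 ± 0.14, adjusted p = 4.74e-11). Between the knockouts 4 of the 9 rose and 4 fell at a median of 0.02, where 59.2% of all tested genes were called: ITGA10 was 5.25-fold (log2 fold change 2.39 ± 0.15, adjusted p = 1.11e-12) and ITGB1 2.98-fold (log2 fold change 1.57 ± 0.09, adjusted p = 1.58e-13) higher in Fn14 KO than in Fn14alpha KO, and ADGRG1 3.77-fold lower (log2 fold change −1.91 ± 0.15, adjusted p = 6.49e-11).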

How the data were processed

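The deposited table gives raw read counts per Ensembl gene and library, with no normalization, per the file headers. It also gives FPKM by the authors: each count over exonic size and column total, a relation that held within rounding in the 4 libraries checked. The submitters' processing notes name HISAT2 2.0.1, HTSeq 0.6.1, cutadapt 1.9.1, FastQC 0.10.1 and DESeq2, with the builds GRCh38.p13 and hg38. The sources used here give no strand setting and no annotation release. A count per gene cannot separate isoforms.

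Counts of all 16 libraries were fitted with edgeR 4.0.16 (R 4.3.3; quasi-likelihood test, two-sided, TMM scaling, filterByExpr by group, robust, 1 mean per group). The filter left 16029 genes, which include 26 of the 39 members; adjusted p-values (Benjamini-Hochberg) run over all of them, and a gene was called at 0.05. Values after ± beside FPKM levels and ratios are SDs. Beside log2 fold changes they are approximate SEs, the absolute log2 fold change over the square root of the test's F value. Where a group has few counts, these can fall below counting error. A fold without "at least" is that of the fit. It can differ from the ratio of FPKM values, since FPKM has no TMM scaling. Levels and orders between genes are in FPKM, which is per length. Alternatives were total counts, DESeq2 1.42.0 (size factors and Wald test), other filters, limma 3.58.1 on log2(FPKM + 0.1) and log2(FPKM + 1), the 2 groups alone, a replicate block, each library left out, and the median of 25 tested genes on either side removed. Plots used Python 3.11.15 and matplotlib 3.10.9, and the pipeline was tested on simulated data.

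Per-library FPKM is given for expressed members, and fold changes for expressed members called in that comparison. Among low members, per-library FPKM is also given for COL2A1, COL4A4, COL5A3 and COL9A3, and fold changes for COL2A1, COL5A3 and COL17A1. Of the biosynthesis and receptor lists, up to 3 called genes with the largest change and a group mean of at least 1 FPKM are named. Low members described by level or fold change were chosen after their values were seen. Members and lists were chosen with earlier results of these data known. Promoter sequences come from RefSeq (GRCh38.p14).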

Additional observations from a re-analysis of the deposited data

Results flagged for a closer look

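Of 72 groups of 4 libraries examined (18 expressed collagens in 4 groups), 4 held a library whose gap to its nearest neighbour was a larger share of the group's range than Dixon's 95% critical value for 4 samples, and chance alone marks about 1 group in 20. COL1A1 had 204.85 FPKM in Fn14 KO replicate 2, against 192.47 to 193.41 FPKM in the other Fn14 KO libraries. COL3A1 had 16.08 FPKM in Fn14alpha KO replicate 2, against 18.22 to 18.58 FPKM in the others. COL1A2 had 0.55 FPKM in Fn14alpha KO replicate 3, against 0.37 to 0.40 FPKM. COL8A1 had 1.02 FPKM in WT replicate 3, against 1.29 to 1.31 FPKM.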

How the results depend on the processing

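Of 69 calls on tested collagens, 57 kept direction and call under every alternative run for them, 10 lost the call under at least 1, and 2 reversed. Removing the median of neighbouring genes reversed COL4A1 (−0.094) and COL4A5 (−0.291) in Fn14 KO over Fn14alpha KO and left 5 collagens higher there, against 10; the cause was not tested. It also ended the calls on COL4A2, COL7A1, COL12A1 and COL18A1 there and on COL5A1 in Fn14alpha KO. The call on COL25A1 in Fn14alpha KO was lost without WT replicate 1 or 3 and without Fn14alpha KO replicate 1 (adjusted p up to 0.103). That on COL17A1 between the knockouts was lost without Fn14 KO replicate 4, without Fn14alpha KO replicate 1 or 4, with total counts, DESeq2, no filter or either limma fit, and with the pair of groups fitted alone (adjusted p up to 0.152). Calls on COL7A1 with TWEAK and on COL18A1 and COL5A2 in Fn14 KO were lost under the settings named beside them. Leaving out 1 library gave 4 to 5, 19 to 20, 20 to 22 and 22 to 24 collagens called with TWEAK, in Fn14alpha KO, in Fn14 KO and between the knockouts, and 759 to 973, 6038 to 6367, 8012 to 8867 and 8937 to 9546 genes in all. Total counts moved the share of higher calls over all genes to 43.9% with TWEAK, 36% in Fn14 KO and 37.3% between the knockouts, against 70.2%, 50.2% and 51.9% with TMM. At 0.5 FPKM 22 collagens counted as expressed. The replicate block gave 893, 6454, 8205 and 9241 genes and 2, 9, 7 and 10 collagens higher and 2, 11, 14 and 13 lower. Same-numbered libraries correlated from −0.52 to 0.29, with 5 of 24 over 0.1, which gave no sign of pairing but cannot exclude it. Genes under about 1 FPKM rest on few counts, and their fold changes shrank with pseudocounts.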
